A study of Mus musculus with 12 samples.

Results

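The transcription factor genes Mybl1 (A-Myb), Mybl2 (B-Myb) and Foxm1 and 5 genes of the MuvB core, Lin9, Lin37, Lin52, Lin54 and Rbbp4, were followed in spleen erythroid precursors of 4 genotype labels. The 8 genes were chosen by symbol, and 9 of the 35557 probe sets on the array were annotated to exactly 1 of them, Lin52 having 2. All 9 lay above the filter on dim signals, so that each of the 8 genes was among the 12980 genes tested. RNA came from spleen cells of mice aged 3 months, sorted for the erythroid antigen Ter119 and for a high level of CD71, the transferrin receptor. The 12 arrays comprised 3 biological replicates for each of 4 labels, namely wild type (WT), loss of E2f8 (E2f8 KO), loss of Rb (Rb KO) and loss of both (DKO). The sources used here do not give the strain, the alleles, the cells in which the genes were deleted or whether animals were pooled.

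MuvB is a protein complex that serves opposite ends of the cell cycle. In resting cells it joins the pocket protein p130 and E2F4 in the DREAM complex, which represses cell cycle genes. In cycling cells it binds B-Myb and then FOXM1, and these activate the genes of G2 and mitosis. Mybl2 and Foxm1 are themselves known E2F target genes, and E2F8 is an atypical E2F that represses E2F targets. A-Myb is best known from male germ cells and germinal centre B cells. Erythroid precursors divide rapidly before they leave the cell cycle to mature.

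Promoters of Mybl2, Lin52 and Lin37, which are among the members that rose below, are shown. The letters searched were an E2F motif and the cell cycle homology region (CHR) that LIN54 binds. Lin52 holds the E2F motif and Lin37 the CHR letters, while Mybl2 holds only the shorter E2F core defined below. Lin54, which also holds the CHR letters, is not shown. The promoters shown run from 250 bases before to 50 bases after the gene start in RefSeq (GRCm38.p6), 5′ to 3′ on the strand of the gene. They lie at chr2:163054385-163054684 (plus strand), chr12:84451258-84451557 (plus strand) and chr7:30559597-30559896 (minus strand). Capitals mark the E2F letters TTTCCCGC, TTTGGCGC, TTTGCCGC or TTTCGCGC, the CHR letters TTTGAA, or the shorter E2F core GGCGGGA, on either strand.
Mybl2: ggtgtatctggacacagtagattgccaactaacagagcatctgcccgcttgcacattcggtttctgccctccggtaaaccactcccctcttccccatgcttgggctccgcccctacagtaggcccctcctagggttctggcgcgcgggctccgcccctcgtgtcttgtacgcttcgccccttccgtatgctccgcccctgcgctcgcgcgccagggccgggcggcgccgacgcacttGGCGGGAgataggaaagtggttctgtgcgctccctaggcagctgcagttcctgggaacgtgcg
Lin52: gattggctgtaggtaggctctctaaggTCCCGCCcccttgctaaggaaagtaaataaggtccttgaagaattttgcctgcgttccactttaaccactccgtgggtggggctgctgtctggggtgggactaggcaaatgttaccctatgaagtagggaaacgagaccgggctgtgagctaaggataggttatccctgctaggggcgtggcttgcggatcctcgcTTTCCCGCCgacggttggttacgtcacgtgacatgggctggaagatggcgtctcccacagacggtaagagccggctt
Lin37: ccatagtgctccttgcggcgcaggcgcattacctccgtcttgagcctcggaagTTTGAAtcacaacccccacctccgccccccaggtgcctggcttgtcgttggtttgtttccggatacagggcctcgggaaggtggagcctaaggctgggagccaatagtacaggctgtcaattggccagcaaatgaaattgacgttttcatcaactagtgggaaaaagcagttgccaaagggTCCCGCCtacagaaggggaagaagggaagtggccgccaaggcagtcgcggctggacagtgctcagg

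Of the 8 genes, 5 matched this promoter table by symbol. The 8-letter E2F motif was found in 1 of them, Lin52, starting at base 224 of the window, and in 2.26% of 32851 promoters of the same length. TTTGAA was found in Lin37 and in both promoters listed for Lin54, and in 17.9% of all promoters. The core GGCGGGA, which was added after the sequences had been seen, was found in Mybl2, Lin37, Lin52 and 1 promoter of Lin54, and in 11.3% of all promoters. It overlaps the longer motif in Lin52. The CCAAT letters were found in Lin37, Lin52, Rbbp4 and 1 promoter of Lin54, against 37.4% of all promoters. A match is a description of the letters and not of a bound site.

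The median probe set of an array had a log2 signal of 6.22 to 6.35. Signals of the targeted genes went against some labels. Rb1 gave 13.02, 12.74 and 12.71 in WT, 12.53, 12.33 and 12.39 in Rb KO, 11.74, 11.68 and 11.72 in E2f8 KO, and 12.23, 11.98 and 12.17 in DKO. The E2f8 probe set read 12.28, 11.70 and 11.88 (WT), 12.36, 12.52 and 11.68 (Rb KO), 12.89, 12.81 and 12.74 (E2f8 KO) and 13.13, 13.17 and 13.09 (DKO). Rb1 was thus lowest in E2f8 KO, and E2f8 was highest in both groups labelled as lacking it. Rb1 had a mean difference from WT of -0.41 in the arrays labelled Rb KO (adjusted p = 0.394), and it fell by 1.11 in those labelled E2f8 KO (limma adjusted p = 0.000154). E2f8 rose by 0.86 in the arrays labelled E2f8 KO (limma adjusted p = 0.00728). The sources used here do not give the place of these probe sets relative to the deletions, and probes outside a deletion cannot check it. Every direction below therefore rests on the labels. Replicate 3 of E2f8 KO and replicate 3 of DKO had male marker genes, with Xist at 5.22 and 3.99, and between 11.30 and 12.18 in the other arrays.

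Erythroid markers were strong in every group, with a mean log2 signal over 12 of 17 listed genes of 12.66 to 12.89 (WT), 12.29 to 12.93 (Rb KO), 12.89 to 13.04 (E2f8 KO) and 12.94 to 12.96 (DKO). Markers of other spleen cells moved with the labels. B cell genes (15 of 18 listed) averaged 10.51 to 11.85 in WT and 9.88 to 12.04 with the Rb KO label, but 7.97 to 8.34 in E2f8 KO and 6.33 to 7.47 in DKO. The macrophage list (16 of 17 measured) averaged 9.57 to 10.38, 8.97 to 9.25, 8.71 to 8.77 and 7.56 to 8.14 in that order. The granulocyte list (14 of 16 measured) ran from 6.39 to 6.51 (WT), 6.90 to 6.99 (Rb KO), 8.19 to 8.68 (E2f8 KO) and 6.93 to 10.31 (DKO). In E2f8 KO against WT, 14 of 15 B cell and 14 of 16 macrophage markers fell, and 8 of 14 granulocyte markers rose, where 14.2% and 11.9% of all genes fell and rose. T and NK cell markers fell in 7 of 8 cases and early progenitor markers in 3 of 4, while 0 of 4 megakaryocyte and 0 of 2 germinal centre markers were called. RNA of the whole sorted sample was measured, so that fewer cells of a type and less RNA per cell cannot be told apart.

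All 8 genes rose in the arrays labelled E2f8 KO against WT, by 1.47-fold to 5.84-fold, where 11.9% of all genes tested rose. Calls here and below are those of limma at an adjusted p under 0.05. Mybl1 rose most, and it ranked as number 9 of the 12980 genes by the size of its increase. Foxm1, Lin9 and Lin54 came next, each at slightly over 2-fold. In all 8 genes the 3 arrays of E2f8 KO lay above the 3 of WT, a separation in that direction seen in 22.3% of all genes. The median log2 difference was 0.94 for the 8 genes and 0.06 for all genes.

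**Figure D1:**
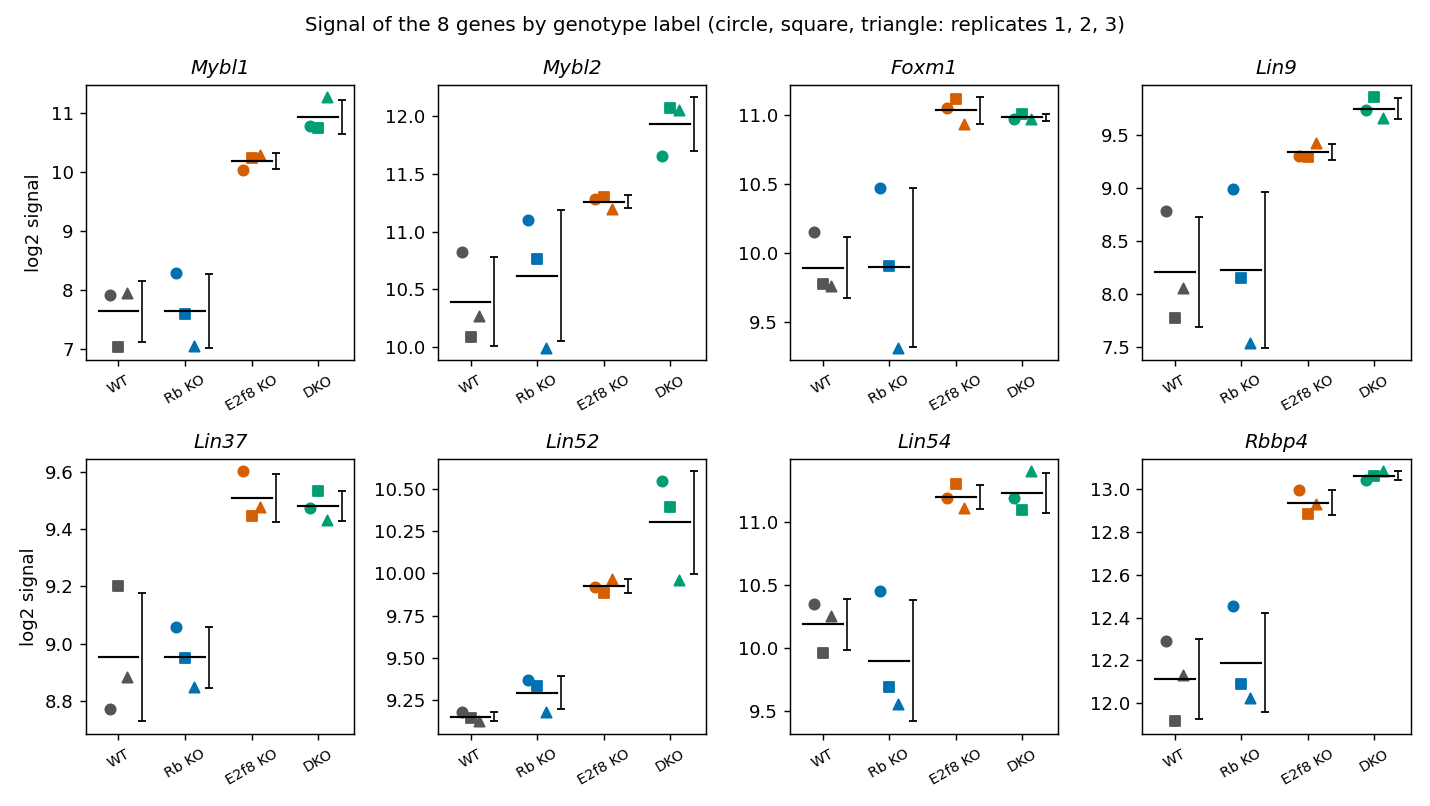
Log2 signal (vertical axis) of each gene in the 12 arrays by genotype label, with the group mean (line) and SD (bar) of 3 arrays. Signals of WT and Rb KO overlap or lie close together, and every E2f8 KO and DKO array lies above every WT array in each panel.

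Mybl1, a transcription factor of the MYB family, had a log2 signal of 7.91, 7.03 and 7.94 in WT replicates 1 to 3, compared with 10.02, 10.22 and 10.28 in E2f8 KO. It was at 8.28, 7.59 and 7.04 in Rb KO and at 10.78, 10.74 and 11.26 in DKO. The groups thus fell into a low pair, WT and Rb KO, and a high pair, E2f8 KO and DKO, with no array between them. Mybl1 rose by 2.55 ± 0.31 (SE, n = 3 per group, limma adjusted p = 0.00037) in E2f8 KO against WT. In DKO it rose by 3.29 ± 0.31 against WT (limma adjusted p = 1.57e-05) and by 3.29 ± 0.31 against Rb KO (limma adjusted p = 2.67e-05). By size it ranked as number 6 and number 2 of all genes in these 2 comparisons.

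Mybl2 encodes B-Myb, the MYB protein that MuvB binds in S and G2 phase. WT arrays gave log2 signals of 10.83, 10.08 and 10.27, followed by 11.10, 10.77 and 9.996 in Rb KO, 11.28, 11.30 and 11.20 in E2f8 KO and 11.66, 12.07 and 12.06 in DKO. All E2f8 KO arrays lay above all WT and Rb KO arrays, replicate 1 of Rb KO coming close to the lowest of them. Mybl2 rose by 0.86 ± 0.26 in E2f8 KO against WT (SE, n = 3 per group, limma adjusted p = 0.0262). It rose by 1.53 ± 0.26 in DKO against WT (limma adjusted p = 0.000588). The difference between E2f8 KO and Rb KO was 0.64 ± 0.26 and did not pass (limma adjusted p = 0.0816).

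Foxm1, the forkhead factor that follows B-Myb onto MuvB, had a log2 signal of 10.15, 9.77 and 9.75 in WT replicates 1 to 3, compared with 11.05, 11.12 and 10.93 in E2f8 KO. It was at 10.97, 11.01 and 10.97 in DKO and at 10.47, 9.90 and 9.31 in Rb KO. E2f8 KO and DKO overlapped, and the 3 Rb KO arrays spread on both sides of WT. Foxm1 rose by 1.14 ± 0.23 in E2f8 KO (SE, n = 3 per group, limma adjusted p = 0.00504) and by 1.09 ± 0.23 in DKO (limma adjusted p = 0.00279), both against WT.

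All 5 MuvB core genes rose in E2f8 KO and in DKO against WT, Lin9 most and Lin37 least in DKO. LIN9 and LIN52 form the surface on which B-Myb docks. For Lin9 the WT arrays gave log2 signals of 8.78, 7.77 and 8.06, followed by 8.99, 8.15 and 7.53 in Rb KO, 9.30, 9.29 and 9.42 in E2f8 KO and 9.73, 9.85 and 9.66 in DKO. The low groups were again spread and the high groups tight. Lin9 rose by 1.14 ± 0.32 in E2f8 KO (limma adjusted p = 0.0212) and by 1.55 ± 0.32 in DKO (limma adjusted p = 0.00225) against WT.

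LIN52 is phosphorylated by DYRK1A when DREAM assembles, and its promoter is the one with the 8-letter E2F motif above. For Lin52 the WT arrays gave 9.18, 9.15 and 9.13 (log2), followed by 9.37, 9.33 and 9.18 in Rb KO, 9.92, 9.89 and 9.97 in E2f8 KO and 10.55, 10.39 and 9.96 in DKO. In this probe set the lowest Rb KO array (9.182) lay barely above the highest WT array (9.180), and replicate 3 of DKO lay within the range of E2f8 KO. Lin52 rose by 0.77 ± 0.17 in E2f8 KO (SE, n = 3 per group, limma adjusted p = 0.0062) and by 1.15 ± 0.17 in DKO (limma adjusted p = 0.000219) against WT. Its other probe set differed from this one by at most 0.134 log2 units in any array. There WT (9.02 to 9.22) and Rb KO (9.05 to 9.46) overlapped, and replicate 3 of DKO (9.99) lay above all E2f8 KO arrays (at most 9.96).

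LIN54 carries the DNA-binding domain of MuvB, which reads the CHR. Lin54 stood at 10.35, 9.96 and 10.25 in WT, 10.45, 9.69 and 9.55 in Rb KO, 11.19, 11.30 and 11.11 in E2f8 KO and 11.19, 11.09 and 11.40 in DKO. E2f8 KO and DKO were alike in range, and 2 of the 3 Rb KO arrays lay below every WT array. Lin54 rose by 1.01 ± 0.21 in E2f8 KO (limma adjusted p = 0.00557) and by 1.04 ± 0.21 in DKO (limma adjusted p = 0.002) against WT. LIN37 is needed for repression by DREAM. Lin37 ranged from 8.77 to 9.20 (WT), 8.85 to 9.06 (Rb KO), 9.45 to 9.60 (E2f8 KO) and 9.43 to 9.53 (DKO). It rose by 0.56 ± 0.16 in E2f8 KO (limma adjusted p = 0.0217) and by 0.53 ± 0.16 in DKO (limma adjusted p = 0.0181) against WT, the smallest increases of the 8 genes.

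RBBP4 is a histone-binding protein that MuvB shares with chromatin assembly factor 1, PRC2, NuRD and SIN3 complexes. Rbbp4 stood at 12.29, 11.92 and 12.13 in WT, 12.45, 12.09 and 12.03 in Rb KO, 12.997, 12.88 and 12.93 in E2f8 KO and 13.04, 13.06 and 13.08 in DKO. DKO lay above E2f8 KO without overlap, by a narrow margin. Rbbp4 rose by 0.82 ± 0.12 in E2f8 KO (SE, n = 3 per group, limma adjusted p = 0.00116) and by 0.95 ± 0.12 in DKO (limma adjusted p = 0.000117) against WT. Whether its probes also read its close relative Rbbp7 was not tested.

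**Figure D2:**
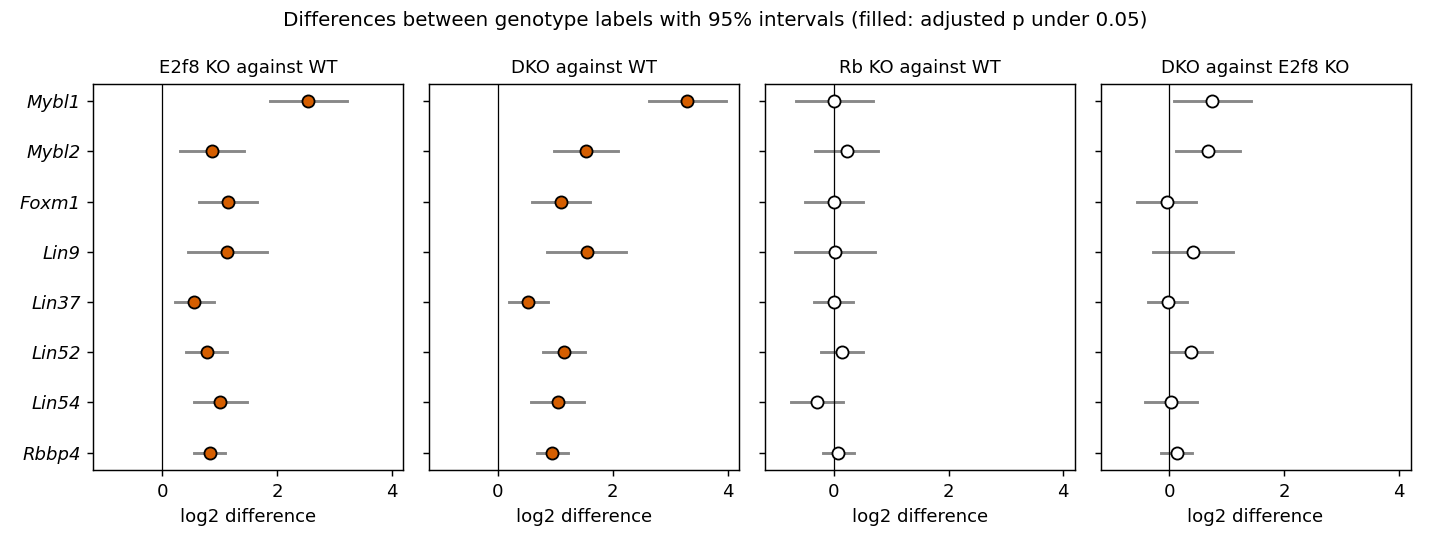
Log2 difference (horizontal axis) of each gene in 4 comparisons, with the 95% interval as a line. All 8 genes are called in E2f8 KO and in DKO against WT, and 0 of 8 in Rb KO against WT and in DKO against E2f8 KO.

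B cell markers and members also varied within groups. Within Rb KO, replicate 1 had the lowest B cell mean (9.88, against 12.04 and 11.98) and the highest signal of all 8 genes. Within WT, replicate 2 had the highest B cell mean (11.85) and the lowest signal of Mybl1, Mybl2, Lin9, Lin54 and Rbbp4, but the highest of Lin37. Foxm1 and Lin52 were lowest in WT replicate 3, which had the lowest B cell mean (10.51). Erythroid means varied too, at 12.93, 12.60 and 12.29 in Rb KO replicates 1 to 3 and at 12.89, 12.66 and 12.77 in WT. The mean of the 8 genes had the same order, at 10.02, 9.56 and 9.19 (Rb KO) and at 9.78, 9.36 and 9.55 (WT). In E2f8 KO and in DKO the 2 orders differed. With the B cell mean of each array as a covariate, 0 of the 8 genes were called in E2f8 KO against WT, and the difference of Lin9 turned to -0.10 ± 0.46. Mybl1 then stood at 1.50 ± 0.47 (limma adjusted p = 0.123) and Lin37, the least moved, at 0.53 ± 0.31 (limma adjusted p = 0.477). With B cell and macrophage means as covariates all 8 differences were above 0, from 0.37 for Lin52 to 1.86 for Mybl1 (limma adjusted p = 0.0801), and 0 were called. Over all 12980 genes both covariates left 265 called, the fewest of any alternative, against 3388 without a covariate. The loss of calls was thus not particular to the 8 genes. Such a slope is fitted within groups, where marker means differ less than between groups, so these values lean on a few arrays.

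**Figure D3:**
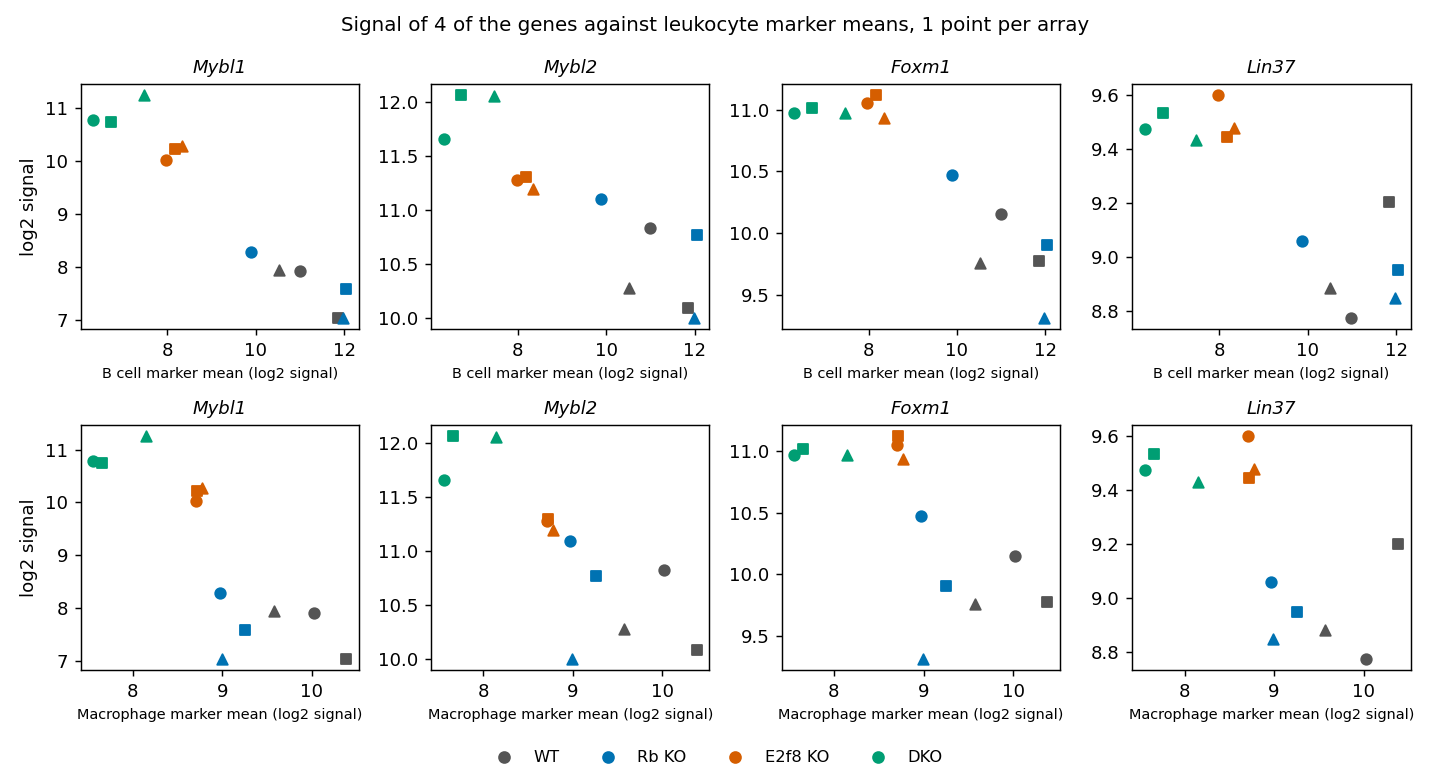
Log2 signal of Mybl1, Mybl2, Foxm1 and Lin37 (vertical axes) against the mean log2 signal of B cell markers (upper row) and macrophage markers (lower row), 1 point per array and 1 shape per replicate. Replicate 1 of Rb KO, at a B cell mean of 9.88, lies between the other Rb KO arrays and the E2f8 KO arrays in the Mybl1 and Foxm1 panels.

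**Figure D4:**
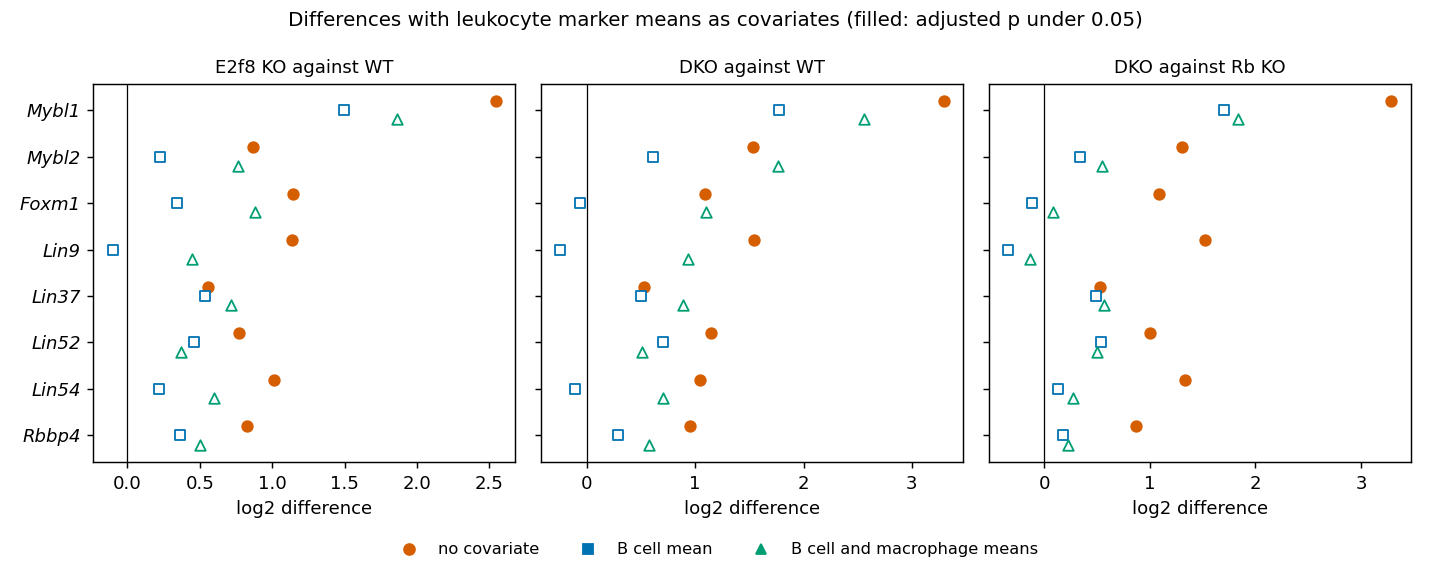
Log2 difference (horizontal axis) of the 8 genes in 3 comparisons without a covariate, with the B cell marker mean, and with both marker means. Without a covariate all 24 values are called, and with either setting of covariates none is. With both covariates 265 of all 12980 genes are called in E2f8 KO against WT and 397 in DKO against WT. Mybl1 has its smallest value, 1.50, in E2f8 KO against WT with the B cell mean.

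Calls in E2f8 KO against WT were not equally firm for all 8 genes. Mybl1, Foxm1, Lin52, Lin54 and Rbbp4 were called whichever single array was left out. Mybl2 and Lin9 were not called without WT replicate 2 or 3 or any 1 of the E2f8 KO arrays. Lin37 was not called without replicate 1 of WT or any 1 of the E2f8 KO arrays. Where these calls were lost the differences were between 0.47 and 1.16. Without both arrays with male marker genes 5 genes were called, Mybl2, Lin9 and Lin37 being lost, and Lin37 was also lost in DKO against WT and against Rb KO.

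All 8 genes were also higher in DKO than in WT, by 1.44-fold for Lin37 to 9.81-fold for Mybl1, where 20.6% of all genes rose and 17.6% fell. In all 8 the DKO arrays lay above the WT arrays, against 24.5% of all genes. The median log2 difference was 1.12 for the 8 genes and 0.00 for all genes. Lin37 was not called under quantile normalization, with only the 6 arrays of the comparison, or without replicate 1 of WT or replicate 2 of DKO. The B cell covariate took Foxm1 to -0.07 ± 0.49, Lin9 to -0.25 ± 0.61 and Lin54 to -0.11 ± 0.43, and left 0 called. With both covariates 0 were called as well, and over all 12980 genes 397 were, against 4952 without a covariate.

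DKO and Rb KO differ in the E2f8 label and share the Rb label. All 8 genes were higher in DKO, by 1.44-fold for Lin37 to 9.76-fold for Mybl1, where 19.5% of all genes rose. They also separated without overlap, as 23.2% of all genes did. Mybl2 rose by 1.31 ± 0.26 (SE, n = 3 per group, limma adjusted p = 0.00189), Foxm1 by 1.09 ± 0.23 (limma adjusted p = 0.00314) and Lin54 by 1.33 ± 0.21 (limma adjusted p = 0.000551). With the B cell covariate Foxm1 stood at -0.12 ± 0.51 and Lin9 at -0.34 ± 0.64, and 0 were called. Over all 12980 genes that covariate left 590 called, against 4819 without it. Lin37 was not called under quantile normalization, with only the groups compared, or without replicate 2 of DKO or replicate 2 or 3 of Rb KO.

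None of the 8 genes passed the test between the arrays labelled Rb KO and WT in limma. Differences ran from -0.29 ± 0.21 for Lin54 to 0.23 ± 0.26 for Mybl2, with 0 of 8 called, 0 of 8 at an unadjusted p under 0.05, and 0.0077% of all genes called in either direction. The 95% intervals reached from -0.19 to 0.35 for Rbbp4 and from -0.66 to 0.68 for Mybl1. The widest was that of Lin9, from -0.67 to 0.71. With B cell and macrophage means as covariates the differences moved to 1.01 ± 0.34 for Foxm1, 1.22 ± 0.44 for Mybl2, 1.07 ± 0.47 for Lin9 and 0.43 ± 0.32 for Lin54, and 0 of 8 were called (limma adjusted p from 0.261 to 0.998). With the B cell mean alone they ran from -0.24 for Lin54 to 0.26 for Mybl2. In signals without a covariate only Lin52 separated without overlap, by 0.14 ± 0.17, where 2.25% of all genes did so in that direction. Its other probe set overlapped between these groups.

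DKO and E2f8 KO, which differ in the Rb label, were both high. None of the 8 genes was called between them in limma, where 2.37% of all genes were called, 1.73% as higher in DKO. Of the 8, 3 had an unadjusted p under 0.05, a level at which the share of all genes was not counted. Lin52, with an unadjusted p of 0.0406 in limma, had an adjusted p of 0.256. Mybl1 was higher in DKO by 0.75 ± 0.31 (limma adjusted p = 0.232) and Mybl2 by 0.67 ± 0.26 (limma adjusted p = 0.198), in both cases with all 3 DKO arrays above all 3 E2f8 KO arrays. Lin9 and Rbbp4 also separated that way, which 18.1% of all genes did. Foxm1, Lin37 and Lin54 had differences of -0.05 ± 0.23, -0.03 ± 0.16 and 0.03 ± 0.21. Mybl1 and Mybl2 were called when only these 6 arrays were fitted (limma adjusted p = 0.0209 and 0.0126) and with array weights (limma adjusted p = 0.0291 and 0.0116). Array weights, whose estimation did not converge, called 2683 of all 12980 genes here, against 308 in the reported fit. These 2 calls are therefore not particular to the 8 genes under that setting.

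The order of group means was thus WT, Rb KO, E2f8 KO and DKO for Mybl1, Mybl2, Lin9, Lin52 and Rbbp4. The step from WT to Rb KO and the step between E2f8 KO and DKO passed the test in none of the 8 genes. The step between Rb KO and E2f8 KO passed for 7 of the 8 genes, where 12.2% of all genes were higher in E2f8 KO, and missed for Mybl2. All 8 separated without overlap, against 24.7% of all genes. Mybl2 passed that step without replicate 1 of Rb KO (0.88, limma adjusted p = 0.00918). Lin9 and Lin37 missed it without any 1 of the E2f8 KO arrays and without replicate 2 or 3 of Rb KO. Lin52 missed it without replicate 1 or 3 of E2f8 KO or replicate 3 of Rb KO, and Lin9 also with only the groups compared. The interaction of both labels, which tests whether the effect of the E2f8 label differs between Rb backgrounds, was called for 0 of the 8 genes, with 0 at an unadjusted p under 0.05 and 0.077% of all genes called. Its largest value was 0.74 ± 0.44 for Mybl1 (95% interval -0.21 to 1.69).

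Genes known to be activated by B-Myb with MuvB and by FOXM1 in G2 and mitosis rose in most cases with the label E2f8 KO. Of 39 measured targets, 34 rose and 1 fell in E2f8 KO against WT, where 11.9% of all genes rose and 14.2% fell, with a median log2 difference of 1.01 against 0.06 for all genes. Skp2, which encodes a ubiquitin ligase subunit that targets p27, rose by 1.48 ± 0.26 (SE, n = 3 per group, limma adjusted p = 0.00223), and Ect2, needed for cytokinesis, rose by 1.13 ± 0.21. The phosphatase gene Cdc25b was the exception and fell by 0.56 ± 0.13. In DKO against WT 29 rose and 1 fell, where 20.6% and 17.6% of all genes did, with a median of 0.87. Between DKO and E2f8 KO 0 of 39 were called, 3 had an unadjusted p under 0.05, and 6 were above 0, with a median of -0.14. Mybl1 and Mybl2 were higher in every DKO array than in every E2f8 KO array, and Foxm1 differed by -0.05 ± 0.23. Of the 39 targets, 33 had a lower mean in DKO. None of these differences, of the factors or of the targets, was called. In Rb KO against WT 0 of 39 were called, 3 had an unadjusted p under 0.05, and the median was -0.10. The share of all genes at an unadjusted p under 0.05 was not counted in either comparison, so these counts of 3 have no reference. The leukocyte markers described above moved with the same labels, and their part in the changes of these targets and of the lists below was not tested.

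**Figure D5:**
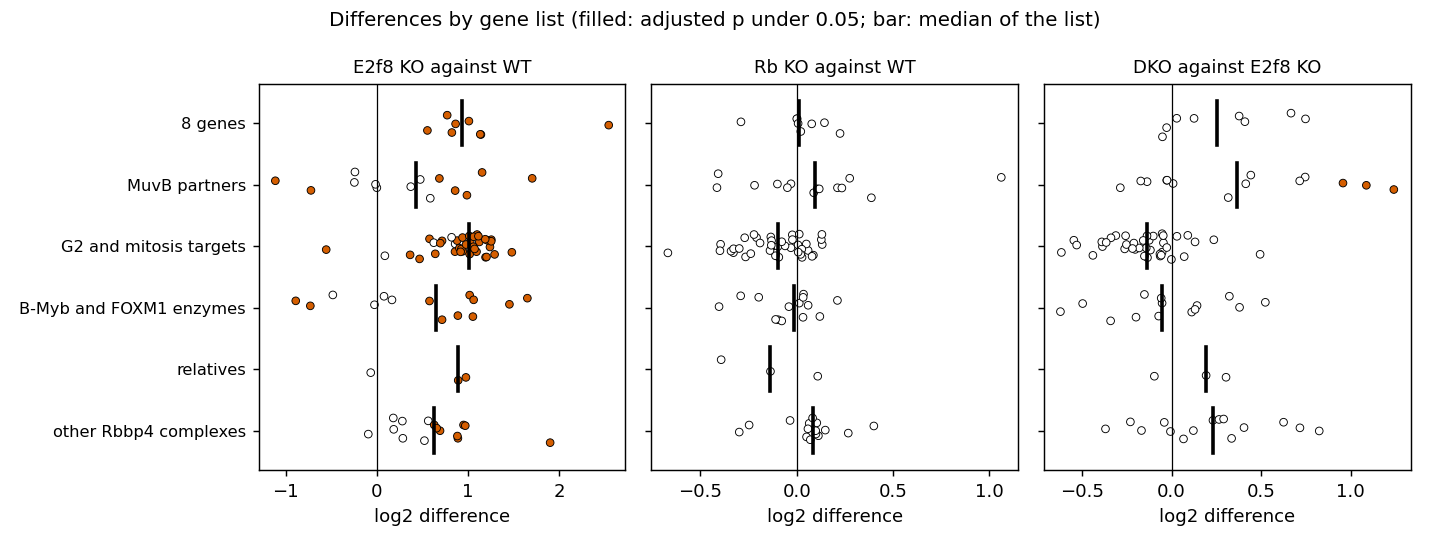
Log2 differences (horizontal axes, each with its own range) of the genes of 6 lists in 3 comparisons, 1 point per gene, with the list median as a bar. In E2f8 KO against WT the 39 targets centre on 1.01, and in DKO against E2f8 KO on -0.14.

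Of 14 partners of MuvB and E2F family genes, 5 rose and 2 fell in E2f8 KO against WT, beside 11.9% and 14.2% of all genes. In DKO against WT 8 rose and 3 fell, beside 20.6% and 17.6% of all genes, and the falls lay near those shares. These counts include the targeted genes, whose signals went against some labels. E2f8 was among the rises and Rb1 among the falls in both comparisons. Dyrk1a, the kinase of LIN52, rose by 0.69 ± 0.11 in E2f8 KO (limma adjusted p = 0.0014) and by 0.70 ± 0.11 in DKO (limma adjusted p = 0.000364). Rbl2, which encodes p130, the pocket protein of DREAM, fell by 0.72 ± 0.19 in E2f8 KO and by 0.90 ± 0.19 in DKO, and its choice for mention came after its values were seen. E2f4, the E2F of DREAM, had a difference of 0.37 ± 0.15 (limma adjusted p = 0.082) in E2f8 KO. Between DKO and E2f8 KO 3 of the 14 were higher in DKO, where 1.73% of all genes were. E2f7 rose by 1.09 ± 0.25 (limma adjusted p = 0.0386). E2f3 rose by 1.24 ± 0.29 (limma adjusted p = 0.0462) and E2f1 by 0.96 ± 0.23 (limma adjusted p = 0.0494), both just under the threshold.

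Of 14 genes for enzymes that act on B-Myb or FOXM1, 8 rose and 2 fell in E2f8 KO against WT, where 11.9% of all genes rose and 14.2% fell. The counts were also 8 and 2 in DKO against WT, where 20.6% rose and 17.6% fell, so that the falls lay near the share of all genes. Ccna2, Cdk1, Plk1 and Melk, which rose in both comparisons, were already counted among the G2 and mitosis targets above. Cdk2, whose kinase with cyclin A phosphorylates B-Myb, rose by 1.46 ± 0.22 in E2f8 KO (limma adjusted p = 0.00119) and by 1.78 ± 0.22 in DKO. Ccnf, for cyclin F, which restrains B-Myb, rose by 1.05 ± 0.24 in E2f8 KO. The D cyclin gene Ccnd1, whose kinase partners phosphorylate FOXM1, fell by 1.51 ± 0.20 in DKO (limma adjusted p = 0.000135). 

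Of 3 relatives of the members, 2 rose in E2f8 KO and in DKO against WT, where 11.9% and 20.6% of all genes rose. Myb, for c-Myb, which maintains early erythroid progenitors, rose by 0.89 ± 0.26 in E2f8 KO (limma adjusted p = 0.0245) and by 1.09 ± 0.26 in DKO against WT. Rbbp7, the close relative of Rbbp4, rose by 0.98 ± 0.18 and by 1.28 ± 0.18. Foxo3, a forkhead gene of erythroid maturation, had a difference of -0.07 ± 0.13 (limma adjusted p = 0.738) in E2f8 KO. Of 15 genes of the other complexes that hold RBBP4, 8 rose and 0 fell in E2f8 KO against WT (11.9% of all genes rose), and 10 rose in DKO against WT (20.6% of all genes). Among them Sin3a, a corepressor scaffold, rose by 0.97 ± 0.15, and Ezh2, the methyltransferase of PRC2, rose by 0.69 ± 0.14 in E2f8 KO.

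Genes with the pattern most like Mybl1, Mybl2 and Foxm1 over the 12 arrays were ranked by Pearson's r, given without a p because the arrays share group differences and differences in leukocyte markers. For Foxm1 they were Arhgap11a, Aurkb, Prr11, Incenp and Fen1, with r from 0.990 to 0.996. For Mybl2 they were Baz1b, Tfdp1, Chaf1a, Nsd2 and Eri1, with r from 0.988 to 0.993. Tfdp1, which encodes the DNA-binding partner of the E2Fs, still had r = 0.988 with Mybl2 after group means were removed. For Mybl1 they were Gsr, Atf1, Mphosph9, Oser1 and Klf5, with r from 0.988 to 0.995. Among the members, Mybl2 and Foxm1 had r = 0.902 after group means were removed. On the same measure Lin37 had 0.172 with Foxm1 and -0.293 with Mybl1, and Lin52 had 0.287 with Foxm1 and -0.078 with Mybl1.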

How the data were processed

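RNA of 12 sorted samples was measured on single-channel Affymetrix arrays, 3 per genotype label. The authors deposited 1 log2 value per probe set and array, the scale being inferred from a range of 1.0678 to 14.8423. MAS5, with no version, is named per the submitters' processing notes. The sources used here do not give the background correction or the normalization, so a shift common to all probe sets of an array could have been removed. The arrays' number limits the precision, with a median standard error of a difference of 0.184.

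Platform annotation gave 21789 probe sets with 1 symbol, 1621 with several and 12147 with no listed gene. Symbols were updated by gene number, which matched for 21698. The lowest 40% of probe sets by mean (14222, below 5.84) were removed, and a gene was represented by its probe set of highest mean. Limma 3.58.1 in R 4.3.3 was fitted to 12980 genes with 1 coefficient per label, all 12 arrays (8 residual degrees of freedom) and a variance trend. P-values were two-sided, adjusted by Benjamini-Hochberg for each of 7 comparisons separately and called under 0.05. They measure the spread between arrays that are labelled as biological replicates, with nothing more said of the animals. The fit was tested on simulated data.

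Members and lists were chosen with earlier results of these data known. Named genes are the members, the targeted genes, up to 4 called genes per list and comparison with the smallest p, and the 5 genes most like Mybl1, Mybl2 and Foxm1. The text names fewer, and a few were chosen after their values were seen (Rbl2, E2f4, Cdc25b in E2f8 KO, Foxo3, Xist). Replicate numbers were not taken to pair animals, because the labels do not say that they do. Deviations of same-numbered replicates from group means had correlations above 0.1 in 7 of 18 pairs. That check cannot settle pairing, since leukocyte markers also varied between arrays within groups. Alternatives were other filters, scalings, probe set rules, variance models, thresholds, covariates, a replicate block and fewer arrays. Promoter sequences are from RefSeq (GRCm38.p6).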

Additional observations from a re-analysis of the deposited data

How the results depend on the processing

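Calls of the 8 genes did not depend on the filter (none or the lowest 60% removed), centring, the probe set rule or the variance trend. Quantile normalization gave 7 of 8 in DKO against WT and against Rb KO. The replicate block changed no count of called members, with 8 of 8 called in E2f8 KO against WT and 7 of 8 in E2f8 KO against Rb KO. Same-numbered arrays had deviations correlated from -0.379 to 0.570.

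At an adjusted p under 0.01 the counts were 5 in E2f8 KO against WT and 4 in E2f8 KO against Rb KO, and at an adjusted p under 0.05 with a change of at least 2-fold they were 4 and 4. Without the 2 arrays with male marker genes 5 were called in E2f8 KO against WT. The numbers of all genes called under these settings are not given here, so whether the losses were particular to the 8 genes is not shown. DKO against E2f8 KO had 2 called with array weights, whose estimation stopped before converging and which called 2683 of all genes. It also had 2 called with only the groups compared, a setting that cannot give the interaction. Leaving out each array in turn gave 5 to 8 called in E2f8 KO against WT and 4 to 8 in E2f8 KO against Rb KO, with 7 or 8 in both other comparisons that had calls. Over all genes the numbers were 1531 to 4384 and 1903 to 5023 in the first 2. They were 3649 to 5621 in DKO against WT and 3423 to 5789 in DKO against Rb KO.

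With the B cell covariate 0 were called in any comparison, and called differences turned to -0.10 (Lin9, E2f8 KO against WT), -0.068, -0.11 and -0.25 (Foxm1, Lin54 and Lin9, DKO against WT), -0.12 and -0.34 (Foxm1 and Lin9, DKO against Rb KO) and -0.20 (Lin9, E2f8 KO against Rb KO). With both covariates 0 were called, and those that turned were Lin9 in DKO against Rb KO (-0.14) and Foxm1 and Lin9 in E2f8 KO against Rb KO (-0.13 and -0.62). With the B cell covariate calls over all genes also fell, to 590 in DKO against Rb KO and to 89 in E2f8 KO against Rb KO. The cause was not tested. A further 56 of 1504 values changed sign where neither value was called.

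Over all genes, E2f8 KO against WT had 3388 called, with 265 (both covariates) to 6649 (array weights) over the alternatives. The range was 397 to 7414 for DKO against WT (4952 as reported), 590 to 7398 for DKO against Rb KO (4819), 89 to 5886 for E2f8 KO against Rb KO (3601), 53 to 2683 for DKO against E2f8 KO (308), 0 to 140 for Rb KO against WT (1) and 2 to 177 for the interaction (10).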
